A study of Mus musculus with 11 samples.

Results

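The genes described here are 8 genes of ion transport in the stria vascularis, the epithelium of the cochlear lateral wall: *Kcnq1*, *Kcne1*, *Bsnd*, *Slc12a2*, *Atp1b2*, *Esrrb*, *Kcnj10* and *Cldn11*. They were picked by gene symbol from a fixed list rather than by a measured threshold, with earlier results of these data known, and all 8 were found among the 18667 genes listed. All 8 were also above the floor set for testing, an average of 0.1 FPKM, as were 16169 genes in all. RNA was sequenced from whole cochleae of 2-month-old mice, 1 library per individual cochlea, and each gene's level was given as FPKM, fragments scaled by transcript length and by the size of the library. The 5 *Atf6*+/+ cochleae came from wild-type littermates and the 6 *Atf6*-/- cochleae from germline knockouts of *Atf6*, an endoplasmic reticulum stress sensor and transcription factor. Mice of either sex were used, and both groups share the C57BL/6J background with its age-related hearing loss allele of *Cdh23*. Whether every cochlea came from a different mouse, litter or day is not stated in the labels, so p-values measure the spread between these cochleae, which may in part be technical.

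The stria vascularis secretes potassium into the endolymph and generates the endocochlear potential, the voltage that drives current through hair cells. Marginal cells face the endolymph. At their basolateral side they take up potassium through the Na,K-ATPase and the Na-K-2Cl cotransporter (*Slc12a2*), recycle chloride through channels that need the barttin subunit (*Bsnd*), and release potassium at their apical side through the KCNQ1 channel with its KCNE1 subunit. Intermediate cells, which are melanocyte-derived, carry the Kir4.1 channel (*Kcnj10*), and basal cells seal the tissue with tight junctions of claudin-11 (*Cldn11*). *Esrrb* encodes an orphan nuclear receptor needed in marginal cells. Several of these genes are also used elsewhere in the cochlea: *Kcnj10*, *Atp1b2* and *Cldn11* in glia, and *Slc12a2* in fibrocytes. A whole-cochlea library sums all of these cells, and fewer strial cells cannot be told apart from less RNA per cell.

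No gene of the 8 differed between genotypes by limma at an adjusted p under 0.05. The change with the smallest p was in *Kcnj10*, which averaged 57.3 ± 5.17 FPKM (SD, n = 6) in *Atf6*-/- against 45.0 ± 8.84 FPKM (SD, n = 5) in *Atf6*+/+ cochleae. It alone passed a looser rule that asks for an unadjusted p up to 0.05 and a log2 fold change beyond 0.05 in either direction. By that rule 9.85% of all genes tested were called, so that 1 of 8 was close to the background, and 4.48% were called in the direction of *Kcnj10*. At an adjusted p under 0.05, 0.068% of genes (11 of 16169) were called, and in 1.25% of genes the genotypes did not overlap, none of the 8 among them. All 8 fitted differences were above 0, with a median log2 fold change of 0.17 against -0.01 over all genes, although the mean FPKM of *Kcne1* was lower in *Atf6*-/- cochleae. Without *Atf6*+/+ replicate 4, only 3 were above 0 and 5 below, and the median was -0.16 against -0.02. *Kcnj10* was again the only one called, where 8.45% of all genes were called, 3.67% higher and 4.78% lower, 0.068% at the adjusted p, and 2.00% did not overlap. The same split of 3 and 5 was found when each library was also rescaled to TPM, which over all genes moved the share of higher genes among the unadjusted calls from 45.5% to 76.0% with all libraries.

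Transcripts of the targeted gene, *Atf6*, averaged 9.52 ± 1.11 FPKM in *Atf6*+/+ (SD, n = 5) and only 4.27 ± 0.285 FPKM in knockouts (SD, n = 6), with every *Atf6*-/- library below every *Atf6*+/+ library (limma adjusted p = 5.17e-05). One library stood apart. In *Atf6*+/+ replicate 4, markers of strial intermediate cells had a mean log2 level of 0.46, against 2.36 to 2.70 in the other *Atf6*+/+ cochleae, and markers of marginal cells 1.43 against 1.95 to 2.27. Its fibrocyte and root cell markers, at 5.50, were also the lowest among *Atf6*+/+ cochleae, next to 5.56 in replicate 3 and up to 6.25 in the others. The same held for hair cell markers, at 1.93 against 1.96 in replicate 3, and for supporting cell markers, at 3.23 against 3.29. Markers of hair cells, supporting cells and the lateral wall, which define the labelled tissue, were detected in both genotypes. Hence each comparison of the 8 genes is given with and without this library. The plot of the 8 genes by library shows how far replicate 4 departs in each.

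**Figure D1:**
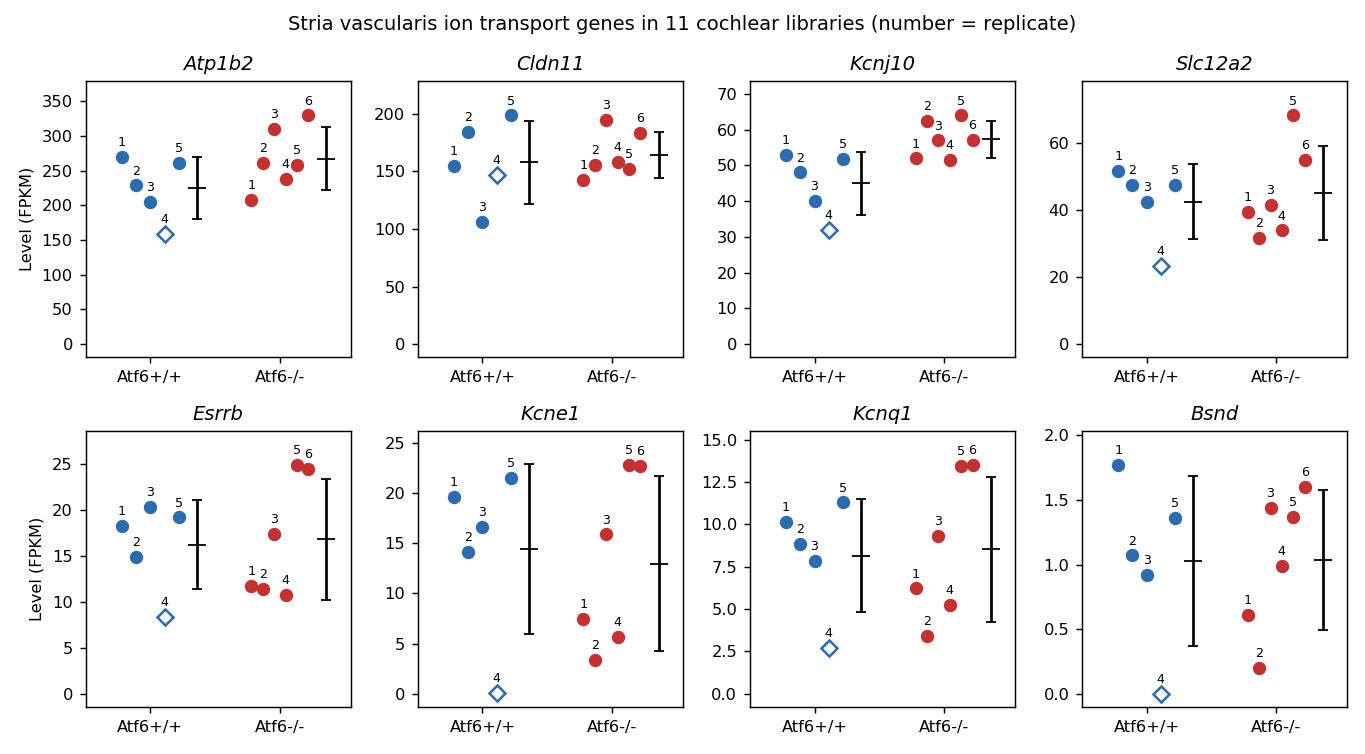
FPKM of the 8 genes in each library (y axis, linear) by genotype (x axis), with 1 point per cochlea numbered by replicate, the mean and SD as bars, and Atf6+/+ replicate 4 as a diamond. Kcne1 and Bsnd were at 0.10 and 0 FPKM in Atf6+/+ replicate 4, while Cldn11 in that library lay among the others.

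*Kcnq1* (NCBI gene 16535) encodes the pore subunit of the apical potassium channel. It stood at 10.2, 8.82, 7.85, 2.69 and 11.3 FPKM in *Atf6*+/+ replicates 1 to 5. Among *Atf6*-/- replicates 1 to 6 it had 6.22, 3.42, 9.32, 5.26, 13.5 and 13.5 FPKM. The *Atf6*-/- cochleae thus lay on both sides of the *Atf6*+/+ values, 3 below and 2 above all *Atf6*+/+ cochleae other than replicate 4. For *Kcnq1* the log2 fold change was 0.04 (95% CI -0.86 to 0.95, limma adjusted p = 0.982), and -0.31 without replicate 4 (95% CI -1.08 to 0.46, limma adjusted p = 0.828). Exact two-sided permutation tests gave p = 0.933 and 0.486.

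*Kcne1* (gene 16509), the accessory subunit that slows the channel and raises its current, had the largest residual SD of the 8 on the log2 scale. The *Atf6*+/+ values were 19.6, 14.1, 16.6, 0.10 and 21.5 FPKM. Those of *Atf6*-/- were 7.43, 3.39, 15.9, 5.64, 22.8 and 22.7 FPKM. *Atf6*-/- replicates 1, 2 and 4 lay below all *Atf6*+/+ cochleae other than replicate 4, in which *Kcne1* was at 0.557% of the mean of those others. Replicates 5 and 6 were above every *Atf6*+/+ cochlea. Knockouts averaged 12.96 ± 8.66 FPKM (SD, n = 6), lower than the 14.4 ± 8.46 FPKM of *Atf6*+/+ cochleae (SD, n = 5), while the difference of mean log2 values had the opposite sign. Its log2 fold change was 0.52 (95% CI -1.87 to 2.90, limma adjusted p = 0.895), and -0.78 without replicate 4 (95% CI -1.88 to 0.32, limma adjusted p = 0.686), so that this single library set its direction. Exact two-sided permutation tests gave p = 0.829 and 0.257.

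Both subunits form the channel of marginal cells, so their ratio was compared within each library. Such a ratio is free of the amount of strial tissue only as far as neither gene is used elsewhere in the cochlea, which was not tested. *Kcne1* divided by *Kcnq1* was 1.93, 1.60, 2.11, 0.0372 and 1.90 in *Atf6*+/+ replicates 1 to 5. In *Atf6*-/- replicates 1 to 6 it was 1.19, 0.991, 1.70, 1.07, 1.69 and 1.68. *Atf6*+/+ replicate 4, with *Kcnq1* at 28.2% and *Kcne1* at 0.557% of the other *Atf6*+/+ mean, lacked *Kcne1* far more than *Kcnq1*. Replicates 1, 2 and 4 of *Atf6*-/-, with the lowest levels, also had the lowest ratios of their group. On the log2 scale the genotypes differed by 0.47 (exact two-sided permutation test, p = 0.939, also 0.939 after adjustment over 4 ratios). Without replicate 4 the *Atf6*-/- mean was 0.43 ± 0.36 (SD, n = 6) against 0.90 ± 0.17 (SD, n = 4), a difference of -0.47 with an exact permutation p = 0.0476, which did not pass adjustment over 4 ratios (0.190).

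**Figure D2:**
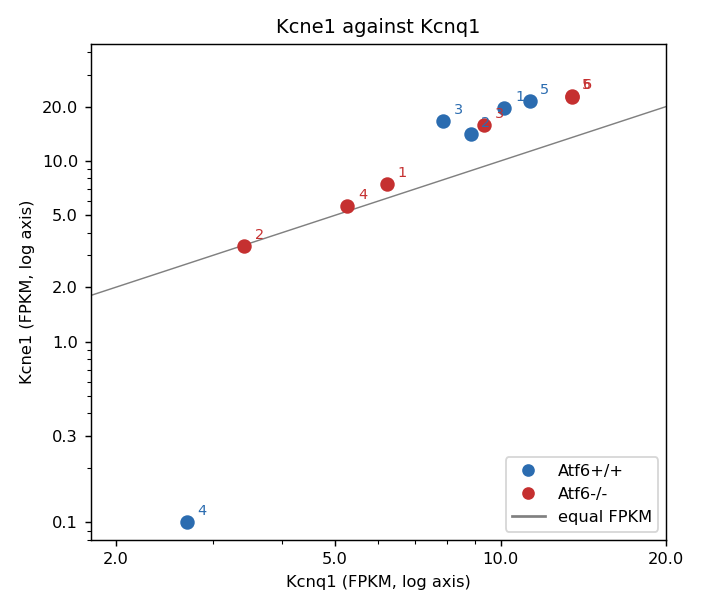
Kcne1 (y axis) against Kcnq1 (x axis) in each library (FPKM, both axes logarithmic), with replicate numbers and the line of equal FPKM. Atf6+/+ replicate 4 lies far under the other libraries, with Kcne1 at 0.10 FPKM, and Atf6-/- replicates 1, 2 and 4 lie closest to the line.

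*Bsnd* (gene 140475) encodes barttin, a subunit that brings chloride channels to the membrane, and it was the least abundant of the 8. It was at 1.77, 1.07, 0.92, 0 and 1.36 FPKM in *Atf6*+/+ replicates 1 to 5. In *Atf6*-/- replicates 1 to 6 it was at 0.61, 0.20, 1.44, 0.99, 1.37 and 1.60 FPKM. The lowest values, in *Atf6*+/+ replicate 4 and *Atf6*-/- replicate 2, were close to or below the 0.1 FPKM added before the log2 transformation. Between genotypes *Bsnd* had a log2 fold change of 0.30 (95% CI -1.23 to 1.83, limma adjusted p = 0.906), and -0.45 without replicate 4 (95% CI -1.43 to 0.53, limma adjusted p = 0.796).

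*Slc12a2* (gene 20496) encodes the cotransporter NKCC1, which loads marginal cells with sodium, potassium and chloride. It stood at 51.5, 47.4, 42.4, 23.3 and 47.4 FPKM in *Atf6*+/+ replicates 1 to 5. In *Atf6*-/- cochleae it had 39.3, 31.7, 41.6, 33.9, 68.2 and 54.9 FPKM. Replicates 1 to 4 of *Atf6*-/- were below, and replicates 5 and 6 above, all *Atf6*+/+ cochleae other than replicate 4. Its log2 fold change was 0.08 (95% CI -0.42 to 0.58, limma adjusted p = 0.925), and -0.12 without replicate 4 (95% CI -0.54 to 0.30, limma adjusted p = 0.881). Exact two-sided permutation tests gave p = 0.766 and 0.605.

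*Atp1b2* (gene 11932), a beta subunit that the Na,K-ATPase needs to reach the membrane, was the most abundant of the 8. *Atf6*+/+ replicates 1 to 5 had 269, 228, 205, 159 and 260.4 FPKM. *Atf6*-/- replicates 1 to 6 had 207, 261, 310.1, 237, 258 and 329 FPKM. The groups overlapped, with replicates 3 and 6 of *Atf6*-/- above every *Atf6*+/+ cochlea. Across genotypes the log2 fold change was 0.26 (95% CI -0.06 to 0.58, limma adjusted p = 0.563), and 0.14 without replicate 4 (95% CI -0.14 to 0.42, limma adjusted p = 0.777). Without *Atf6*-/- replicate 1 it was 0.33 and passed the looser rule (limma adjusted p = 0.602), and no other library's omission brought a further gene of the 8 past that rule.

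*Esrrb* (gene 26380), the nuclear receptor, followed the potassium channel genes. It was at 18.3, 14.9, 20.4, 8.34 and 19.2 FPKM in *Atf6*+/+ replicates 1 to 5. In *Atf6*-/- cochleae it was at 11.8, 11.4, 17.4, 10.8, 24.9 and 24.5 FPKM. Again replicates 1, 2 and 4 of *Atf6*-/- were below, and replicates 5 and 6 above, all *Atf6*+/+ cochleae other than replicate 4. *Esrrb* had a log2 fold change of 0.03 (95% CI -0.59 to 0.64, limma adjusted p = 0.984), and -0.19 without replicate 4 (95% CI -0.75 to 0.36, limma adjusted p = 0.852).

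*Kcnj10* (gene 16513), the Kir4.1 channel through which intermediate cells set the endocochlear potential, was steadier from library to library. It was at 53.0, 48.1, 40.0, 32.0 and 51.8 FPKM in *Atf6*+/+ replicates 1 to 5. In *Atf6*-/- replicates 1 to 6 it was at 52.0, 62.4, 57.0, 51.5, 64.0 and 57.1 FPKM. The groups overlapped, but 4 of 6 *Atf6*-/- cochleae were above the highest *Atf6*+/+ cochlea. The log2 fold change was 0.37 (standard error 0.120, 95% CI 0.11 to 0.63), a level 1.29-fold higher, with an unadjusted limma p = 0.00952, an adjusted limma p = 0.403 and an exact two-sided permutation p = 0.0130. Without replicate 4 it was 0.25 (95% CI 0.06 to 0.45), 1.19-fold, with an unadjusted limma p = 0.0156, an adjusted limma p = 0.535 and an exact permutation p = 0.0286. Leaving out single libraries kept it between 0.25 and 0.43.

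Marker lists of other cell types are given beside *Kcnj10* as counts, and no list was tested as a whole. Of all genes, the looser rule called 4.48% higher and 5.37% lower, or 3.67% and 4.78% without replicate 4. Oligodendrocyte markers, of which 8 of 8 were higher in *Atf6*-/- cochleae and 4 were called by the looser rule (5 without replicate 4), summed to 2971 to 3837 FPKM in *Atf6*+/+ and 3058 to 4040.3 FPKM in *Atf6*-/- libraries. Satellite glia and astrocyte markers, 6 of 7 higher and none called by limma at either rule, summed to 733 to 1279 and 880.4 to 1279 FPKM. Neutrophil markers were lower in 7 of 7, with 3 called by the looser rule of limma and 0 without replicate 4, and summed to 248 to 3053 and 89.4 to 1189 FPKM. Erythroid markers were lower in 6 of 6, with 5 called with and without replicate 4. No marker on these lists was at 0 in every library. When a score of bone marrow markers entered the model, *Kcnj10* differed by 0.22 (limma adjusted p = 0.977) and was no longer called by the looser rule. Marrow markers themselves had fitted differences below 0 in *Atf6*-/- cochleae, so this fit cannot tell marrow from genotype. The part of glia in the result was not tested.

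*Cldn11* (gene 18417), the basal cell tight junction claudin, which is also a myelin protein of oligodendrocytes, was at 155, 185, 106, 147 and 199 FPKM in *Atf6*+/+ replicates 1 to 5. The knockouts had 143, 156, 195, 158, 153 and 183 FPKM. All 6 lay within the range of the *Atf6*+/+ cochleae, and *Atf6*+/+ replicate 4, at 91.2% of the mean of the other 4, was not low. The lowest value was in *Atf6*+/+ replicate 3. *Cldn11* had a log2 fold change of 0.08 (95% CI -0.23 to 0.39, limma adjusted p = 0.868), and 0.06 without replicate 4 (95% CI -0.28 to 0.41, limma adjusted p = 0.926).

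**Figure D3:**
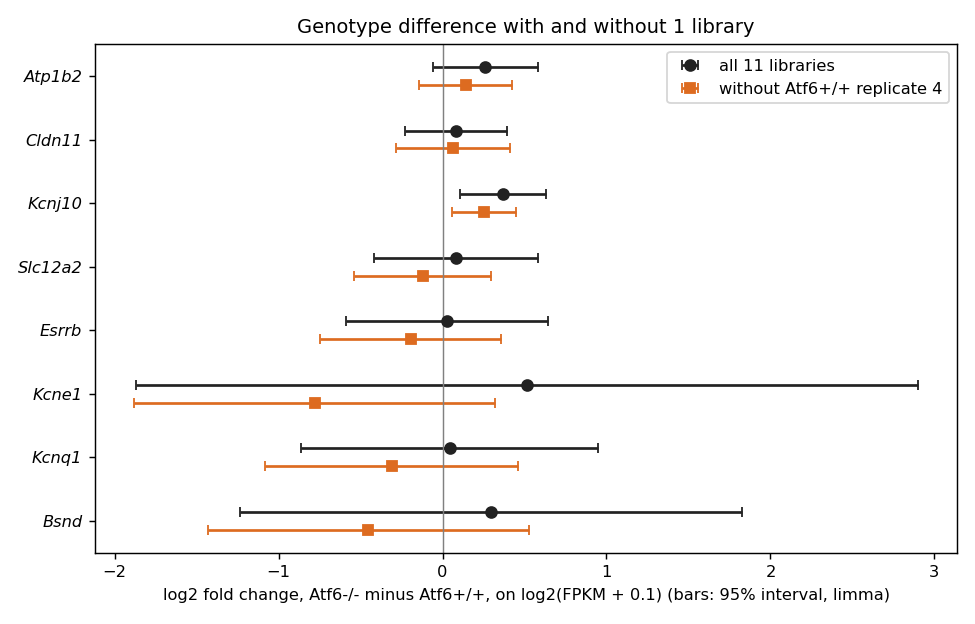
Log2 fold change, Atf6-/- minus Atf6+/+ (x axis), of the 8 genes with its 95% confidence interval from limma, over all 11 libraries and without Atf6+/+ replicate 4. The interval lay above 0 for Kcnj10 alone, and 5 of 8 estimates moved from above to below 0 without replicate 4.

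Promoter sequence was at hand for 3 of the 8 genes, in RefSeq tables of build GRCm38.p6, whose coordinates differ from the GRCm39 of the expression values. The 250 bases before the start are shown for *Kcnj10*, the gene called, for *Cldn11*, its counterpart in basal cells, and for *Esrrb* at the second of its annotated starts, all on the plus strand. Capitals mark CCAAT and its reverse complement ATTGG, the box that opens the ER stress element bound by ATF6 with NF-Y.

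*Kcnj10*, chr1:172340960-172341209: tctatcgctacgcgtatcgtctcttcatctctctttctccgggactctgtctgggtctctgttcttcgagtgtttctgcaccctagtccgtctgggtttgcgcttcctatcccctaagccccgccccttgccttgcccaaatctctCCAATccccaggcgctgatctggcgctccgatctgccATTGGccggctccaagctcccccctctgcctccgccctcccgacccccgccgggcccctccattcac

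*Cldn11*, chr3:31149670-31149919: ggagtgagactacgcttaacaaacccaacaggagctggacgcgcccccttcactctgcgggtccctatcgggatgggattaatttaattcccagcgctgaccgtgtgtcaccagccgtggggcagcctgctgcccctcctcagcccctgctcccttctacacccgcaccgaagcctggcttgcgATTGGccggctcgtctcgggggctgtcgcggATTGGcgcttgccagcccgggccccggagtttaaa

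*Esrrb*, chr12:86421394-86421643: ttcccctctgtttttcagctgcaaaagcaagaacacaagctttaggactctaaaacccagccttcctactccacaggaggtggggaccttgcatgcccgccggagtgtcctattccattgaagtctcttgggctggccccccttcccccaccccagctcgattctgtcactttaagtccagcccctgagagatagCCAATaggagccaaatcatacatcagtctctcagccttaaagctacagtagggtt

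The box lay 104 and 67 bases before the start of *Kcnj10*, 66 and 35 before that of *Cldn11* and 55 before that of *Esrrb*, and none lay before the first *Esrrb* start. On either strand it was found in 33.8% of the 250-base windows of all 32851 promoters. Neither of the full elements searched on both strands, ERSE (0.119% of all 300-base promoters) and ERSE-II (0.0365%), both of which contain this box, was found in the windows of the 3 genes. The binding motif of estrogen-related receptors, TNAAGGTCA (1.28%), was not found there either, nor its core AGGTCA (16.3%). *Kcnj10* and *Cldn11* share the run ATTGGCCGGCTC at 67 and 66 bases before the start, a run held by 5 of all promoters on either strand and noticed after the sequences had been seen. These matches describe letters and not binding.

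The 8 levels kept a nearly fixed order. On the FPKM scale, which corrects for transcript length, *Atp1b2* averaged 248 over all 11 libraries, *Cldn11* 162, *Kcnj10* 51.7, *Slc12a2* 43.8, *Esrrb* 16.5, *Kcne1* 13.6, *Kcnq1* 8.36 and *Bsnd* 1.03. Each gene was above the next in 11 of 11 libraries, apart from *Kcnj10* over *Slc12a2*, *Esrrb* over *Kcne1* and *Kcne1* over *Kcnq1*, which held in 9 of 11. The residual SD of log2 FPKM was 2.11 for *Kcne1*, 1.34 for *Bsnd* and 0.80 for *Kcnq1*, all above the 90th percentile of genes tested (0.540). Without replicate 4 these were 0.91, 0.79 and 0.63, still above that percentile of the genes fitted without it. It was 0.54 for *Esrrb*, 0.44 for *Slc12a2*, 0.28 for *Atp1b2*, 0.27 for *Cldn11* and 0.22 for *Kcnj10*, against an all-gene median of 0.154. Without replicate 4 that of *Kcnj10* was 0.15, close to the all-gene median of 0.146. Among the *Atf6*-/- libraries the highest value was 8.0 times the lowest for *Bsnd*, 6.71 times for *Kcne1* and 3.95 times for *Kcnq1*, but 1.24 times for *Kcnj10*. Among all 5 *Atf6*+/+ libraries these were 215 times for *Kcne1*, 4.20 times for *Kcnq1* and 1.65 times for *Kcnj10*, with *Bsnd* at 0 in replicate 4, so the *Atf6*+/+ range was the wider. Among the 4 other than replicate 4 they were 1.92 times for *Bsnd*, 1.52 for *Kcne1*, 1.44 for *Kcnq1* and 1.32 for *Kcnj10*. The difference in spread was not tested.

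*Kcnq1*, *Kcne1*, *Slc12a2*, *Bsnd* and *Esrrb* rose and fell together from library to library, a grouping made once their values had been seen. Over the 11 libraries the 10 correlations among them (Pearson's r of log2 values) lay between 0.79 and 0.96, with a median of 0.91. Without replicate 4 they lay between 0.68 and 0.97, with a median of 0.88. *Kcnj10* correlated with these 5 at 0.47 to 0.65, and at -0.13 to 0.19 without replicate 4 (Spearman's rho 0.25 to 0.33). *Cldn11* did so at 0.13 to 0.33, and at 0.05 to 0.31 without it. *Atp1b2* did so at 0.63 to 0.73, and at 0.30 to 0.43 without it, and its r with *Kcnj10* was 0.82, or 0.62 without replicate 4. All of these share the same libraries and describe them.

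**Figure D4:**
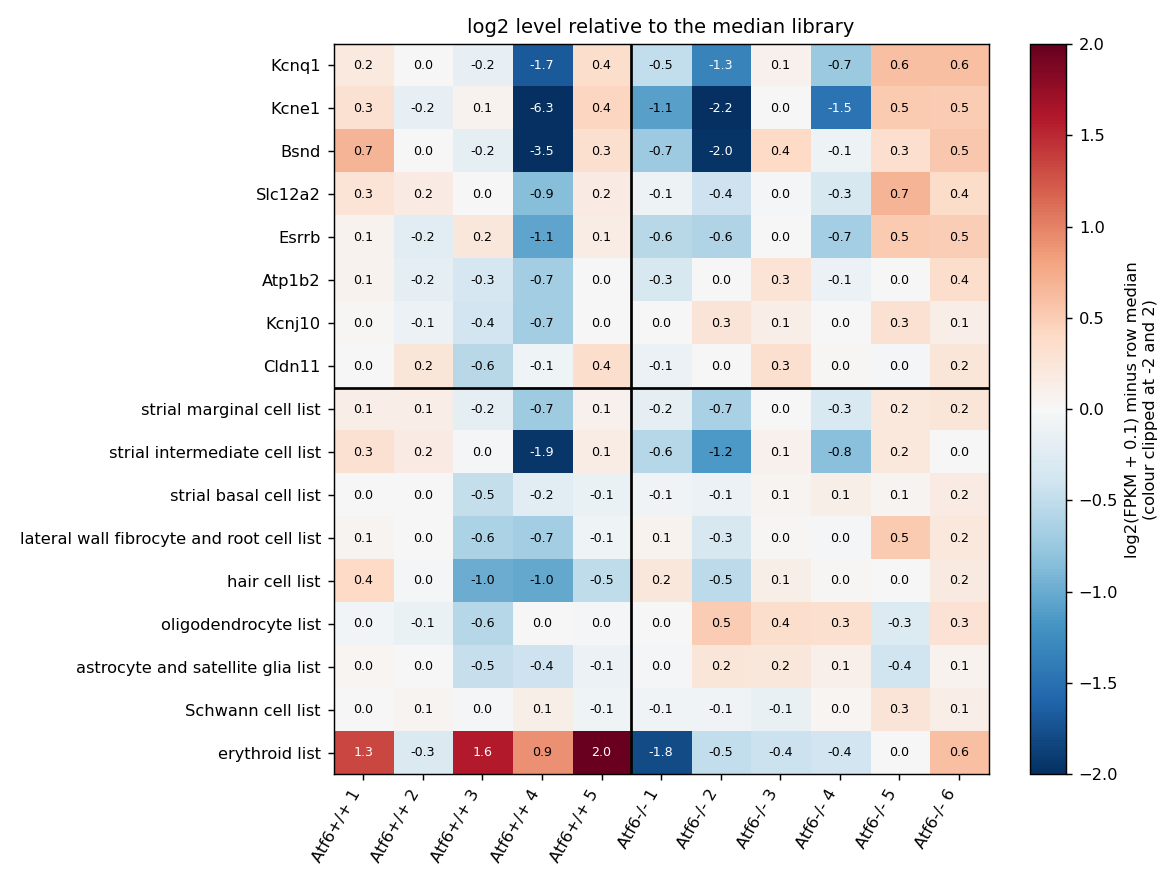
Log2(FPKM + 0.1) minus the row's median over the 11 libraries, printed and as color clipped at -2 and 2, for the 8 genes (upper rows) and the mean of each marker list (lower rows) in each library (columns). Kcnq1, Kcne1, Bsnd, Slc12a2 and Esrrb are all below their medians in Atf6+/+ replicate 4 and in Atf6-/- replicates 1, 2 and 4. Among these the drop is least for Slc12a2 in Atf6-/- replicate 1 (-0.11) and Bsnd in Atf6-/- replicate 4 (-0.10). In the Atf6-/- libraries Cldn11 is no lower than -0.12, in replicate 1, and Kcnj10 no lower than -0.01.

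The mean levels of strial marker lists were set beside the 8 genes in the same libraries. *Kcne1* correlated at 0.86 with the mean of the marginal cell markers and at 0.95 with that of the intermediate cell markers over 11 libraries (Pearson's r), and at 0.92 and 0.96 without replicate 4. For *Kcnj10*, which marks intermediate cells within the stria, these were 0.46 and 0.50, and 0.01 and -0.18 without replicate 4 (Spearman's rho 0.27 and 0.09). Without replicate 4 its r was 0.66 with basal cell, 0.65 with fibrocyte and root cell and 0.61 with oligodendrocyte markers (Spearman's rho 0.43, 0.56 and 0.38). It was about as far below 0 with neutrophil markers at -0.66, neuron markers at -0.64 and B cell markers at -0.56 (Spearman's rho -0.64, -0.41 and -0.03). Members of the intermediate cell list did not all vary alike. The melanocyte enzyme *Dct*, chosen after its values were seen, was at 56.8, 60.5, 69.7, 0.84 and 76.4 FPKM in *Atf6*+/+ and 26.8, 13.3, 54.3, 8.35, 76.5 and 80.2 FPKM in *Atf6*-/- replicates. *Dct* was low in *Atf6*+/+ replicate 4 and in *Atf6*-/- replicates 1, 2 and 4, the libraries in which *Kcne1* was low. *Pmel* and *Tyrp1*, on the same list, were not lowest in *Atf6*+/+ replicate 4, at 3.79 and 0.68 FPKM, and were highest among the knockouts in replicate 4, at 4.60 and 0.83 FPKM.

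The genes most like the mean of the 8 across libraries were ranked among 13603 genes that averaged 1 FPKM or more. Over all 11 libraries they were *Gcnt1* (Pearson's r 0.962), *Smad5*, *Dct*, *Egln1*, *Mlana*, *Gas2*, *Met*, *Slc5a3*, *Strn3* and *Pax2* (0.943), of which *Dct* and *Mlana* are melanocyte genes and *Met* an intermediate cell marker. Without replicate 4 the first 8 were *Gsc* (0.958), *Dclk1*, *Stac*, *Atp2c2*, *Padi1*, *Gramd2*, *Itpr2* and *Lctl* (0.937).

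Other genes of cochlear potassium transport were mostly close to equal between genotypes. Of 17 genes listed, 16 were tested, 12 with a difference above and 4 below 0, and their median was 0.09 on the log2 scale, or 0.02 without replicate 4. Of these 1 was called higher by the looser rule (4.48% of all genes) and 1 lower (5.37%). The gene called higher was *Kcnj16*, which encodes a channel subunit that pairs with Kir4.1, at 29.4 ± 8.43 FPKM in *Atf6*-/- (SD, n = 6) against 20.5 ± 7.38 FPKM in *Atf6*+/+ (SD, n = 5). This difference of 0.56 on the log2 scale (limma adjusted p = 0.505) became 0.37 without replicate 4 and was then not called. Called lower was *Stk39*, a kinase acting upstream of *Slc12a2*, at 101 ± 4.34 FPKM in *Atf6*-/- (SD, n = 6) against 109.9 ± 6.09 FPKM in *Atf6*+/+ (SD, n = 5), a difference of -0.12 (limma adjusted p = 0.460). It was also called without replicate 4, at -0.13.

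Strial cell markers outside the 8 were also mostly not called. The looser rule called 4.48% of all genes higher and 5.37% lower, or 3.67% and 4.78% without replicate 4. Of 7 marginal cell markers tested, 1 was called, *Wnk2*, higher by 0.21 on the log2 scale (limma adjusted p = 0.474) but not called without replicate 4. *Shroom3*, in the same list, had a difference of 0.16 (limma adjusted p = 0.703), or 0.14 without replicate 4. None of 8 intermediate cell markers was called by limma at the looser rule, and over them the median was 0.02, or -0.47 without replicate 4. The melanosome gene *Pmel* had -0.55 (limma adjusted p = 0.505) and *Tyrp1*, a melanin enzyme, -0.42 (limma adjusted p = 0.731), or -0.59 and -0.35 without replicate 4. Of 3 basal cell markers, *Sox8* was called, higher by 0.30 (limma adjusted p = 0.462), and not without replicate 4, while the tight junction gene *Tjp1* had 0.14 (limma adjusted p = 0.559), or 0.09 without it. Fibrocyte and root cell markers had 2 of 8 called, *Epyc* at 0.86 and *Coch* at 0.33 (limma adjusted p = 0.431 and 0.481), of which only *Epyc* passed without replicate 4. No gene on any of these lists had a limma adjusted p under 0.05.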

How the data were processed

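RNA from 11 whole cochleae, 5 *Atf6*+/+ and 6 *Atf6*-/-, was prepared as stranded mRNA libraries (DNBSEQ, paired-end 100 bp, 30 M reads per sample by the study's methods). The FPKM values were deposited by the authors, who aligned reads to GRCm39 with HISAT2 2.0.4 and estimated expression with RSEM (1.2.12 in the submitters' processing notes, a different version in the methods). The authors also ran DESeq2 1.4.5. No counts were used here, so counting error and exact depth are unknown. FPKM sums were 462005 to 537926, and 15733 to 16204 genes reached 0.1 FPKM per library. Columns of samples left unused numbered 0.

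Genes averaging 0.1 FPKM or more entered limma 3.58.1 in R 4.3.3, on log2(FPKM + 0.1) with a mean-variance trend, genotype as the only term, and Benjamini-Hochberg adjustment over 16169 genes. Fold changes on this scale understate changes of low genes. The looser call rule (unadjusted p up to 0.05, log2 fold change beyond 0.05) follows the study. Single genes and subunit ratios were compared by exact two-sided permutation of the genotype labels (462 arrangements with all libraries). P values measure the spread between these cochleae. The model was also run on simulated data, with an outcome that is not reported here. The other steps used scipy 1.17.1, pandas 2.3.3 and numpy 2.4.6 in Python 3.11.15, with plots by matplotlib 3.10.9.

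The 8 genes and the 18 other gene lists were chosen with earlier results of these data known. Named beside the 8 are *Atf6*, the 2 genes of each list with the smallest p, and the 10 most like the mean of the 8. Some genes and 3 of the 4 subunit ratios are not reported here. *Dct* values, the searches for CCAAT boxes, ER stress elements and AGGTCA and the grouping of 5 genes were added after values were seen. Alternatives were pseudocounts of 1 and 0.01, no filter or a mean of 1 FPKM, TPM and median-of-ratios scaling, robust variance, a replicate block, a bone marrow covariate (neutrophil, B cell and erythroid markers) and each library left out. Promoters are from GRCm38.p6 and were not converted.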

Additional observations from a re-analysis of the deposited data

Results flagged for a closer look

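Each of the 8 genes was examined with Dixon's test in FPKM and on the log2(FPKM + 0.1) scale, and the log2 ratio of *Kcne1* to *Kcnq1* beside them, in groups of 5 or 6 libraries. Of 34 such tests, 5 had a library far from the others. Chance gives about 1 in 20 per test, but the 34 are not independent. *Atf6*+/+ replicate 4 was also known beforehand to have little lateral wall RNA in these data. The count can therefore not be set against chance. All 5 were *Atf6*+/+ replicate 4 on a log2 scale, and none was in linear FPKM. The log2 level there was -2.32 for *Kcne1* (nearest *Atf6*+/+ library 3.83), -3.32 for *Bsnd* (0.029), 1.48 for *Kcnq1* (2.99) and 4.55 for *Slc12a2* (5.41). The log2 ratio of *Kcne1* to *Kcnq1* was -3.80, and the nearest *Atf6*+/+ library had 0.67. The log2 scale was added after the values were seen.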

How the results depend on the processing

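Leaving out 1 library at a time set the range of each log2 fold change: *Kcnq1* -0.31 to 0.27, *Kcne1* -0.78 to 0.91, *Bsnd* -0.45 to 0.64, *Slc12a2* -0.12 to 0.17, *Esrrb* -0.19 to 0.14, *Cldn11* -0.054 to 0.17, *Atp1b2* 0.14 to 0.33 and *Kcnj10* 0.25 to 0.43. The lowest values of the first 5 came without *Atf6*+/+ replicate 4 and that of *Cldn11* without *Atf6*+/+ replicate 3. *Kcnq1* also turned below 0 without *Atf6*-/- replicate 3 (-0.01), 5 (-0.12) or 6 (-0.12), *Esrrb* without 3 (-0.0006), 5 (-0.10) or 6 (-0.10), and *Slc12a2* without 5 (-0.05). The number of the 8 called by the looser rule was 1 to 2, and that of all genes 1196 to 1865, or 8 to 13 at the adjusted p. The log2 ratio of *Kcne1* to *Kcnq1* ranged from -0.47 to 0.75.

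The bone marrow covariate left 0 of the 8 called, against 1, and 845 of all genes by the looser rule, against 1592, with 6 at the adjusted p, against 11. It gave *Kcnq1* -0.18, *Kcne1* -0.13, *Slc12a2* -0.080, *Bsnd* -0.064, *Cldn11* -0.10 and *Kcnj10* 0.22, and the cause was not tested. The covariate goes partly with genotype, so that fit cannot tell marrow from genotype. Replicate numbers did not pair the libraries (correlations of same-numbered deviations -0.210 to 0.119, 1 of 5 best with its own number). The replicate block gave 4 genes at the adjusted p, *Kcnq1* -0.12 and *Esrrb* -0.10, and it leaves out *Atf6*-/- replicate 6 in effect. Both scalings combined with leaving out *Atf6*+/+ replicate 4 were chosen after seeing the data. TPM then gave *Kcnq1* -0.27, *Kcne1* -0.74, *Slc12a2* -0.074, *Bsnd* -0.45 and *Esrrb* -0.15, and median of ratios -0.30, -0.77, -0.11, -0.44 and -0.18. TPM moved the higher and lower calls among all genes from 724 and 868 to 1389 and 439. Pseudocounts, filters, robust variance and either scaling with all 11 libraries changed no direction or call among the 8, but the pseudocount moved sizes. With pseudocounts of 1 and 0.01, *Bsnd* had 0.036 and 0.86, *Kcne1* 0.12 and 0.68, and the log2 ratio of *Kcne1* to *Kcnq1* differed by 0.081 and 0.63.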

Other observations

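Markers of other cell types in the same libraries had these differences, by limma at the looser rule. That rule called 4.48% of all genes higher and 5.37% lower, or 3.67% and 4.78% without *Atf6*+/+ replicate 4. Of 10 hair cell genes 2 were called higher, *Ocm* by 1.16 on the log2 scale and *Slc26a5* from 0.700 to 1.93 FPKM (1 without *Atf6*+/+ replicate 4, *Ocm*), and of 8 supporting cell genes 1 was called, *Fgfr3* by 0.59, beside *Gjb6* at 0.22. None of 3 vestibular genes (*Otop1* -0.11, *Hmx3* 0.13), 7 neuron genes (*Snap25* -0.14, *Prph* -1.25, or -0.48 without *Atf6*+/+ replicate 4, where it stood at 41.5 FPKM) or 7 Schwann cell genes (*Egr2* -0.09, *Sox10* 0.16) was called. Of the oligodendrocyte genes called, *Cnp* was higher by 0.13, and among glia *Aqp4* had 0.36 and *Slc1a2* 0.49.

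Each marrow gene listed had a log2 fold change below 0, but not all were called. The looser rule called 3 of 7 neutrophil (*S100a8* -1.72, *S100a9* -1.74), 3 of 6 B cell (*Cd79a* -0.76) and 5 of 6 erythroid genes (*Alas2* -1.68, *Hbb-bt* -1.66). Without *Atf6*+/+ replicate 4 these counts were 0, 1 and 5, and no list was tested as a whole. None of 7 bone genes was called (*Phex* -0.30, *Col1a1* -0.67). None of 5 skeletal muscle genes was called (*Acta1* -1.12, *Tnni2* 0.73), and their summed level reached 32.9 FPKM in *Atf6*-/- replicate 3 against 4.35 FPKM at most in *Atf6*+/+ libraries. Of 4 kidney-like epithelial genes, *Aqp2* alone was tested, at 0.38, and was not called. By adjusted p none of these genes was called, and their part in the values of the 8 strial genes was not tested. The marrow covariate cannot test it, since that covariate goes partly with genotype.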
